A study of Homo sapiens with 10 samples.

Results

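The genes described here belong to families of deubiquitinases, the proteases that remove ubiquitin from other proteins. They were chosen by symbol, as every row of the gene count table named USP followed by digits and at most 1 letter L or X, with USP8 and USP18 set aside. Another 10 genes were listed by name (UCHL1, UCHL3, UCHL5, BAP1, OTUB1, OTUB2, CYLD, BRCC3, PSMD14 and COPS5). Of 60898 rows, 59 met the symbol rule, and 56 of these reached 10 counts in 2 or more libraries. The other 3, USP26, USP29 and USP41, had 6, 0 and 3 counts summed over all 10 libraries and are described no further. All 56 passed the filter on low counts used for the tests.

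RNA was sequenced from cells that the labels call NPC (neural progenitor cells) of H1, a widely used line of human embryonic stem cells. The study asked what loss of STAMBP, an endosomal deubiquitinase of the JAMM metalloprotease family, does to these cells, and whether returning STAMBP or adding CFLAR changes it. There were 5 groups of 2 libraries: STAMBP knockout cells given CFLAR (labelled KO+CFLAR), knockout cells given STAMBP (KO+STAMBP), 2 knockout lines with no construct (KO1 and KO2) and unedited cells (WT). All groups share the H1 background, the labels do not say whether KO1 and KO2 are single clones or which of them received a construct, and nothing says that the 2 libraries of a group are separate cultures, so the p-values speak of library-to-library spread, part or all of which may be technical.

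Ubiquitin-specific proteases (USPs), ubiquitin C-terminal hydrolases (UCHs) and ovarian tumour (OTU) enzymes are cysteine proteases, while the JAMM enzymes are zinc metalloproteases. They reverse the work of the ubiquitin-activating (E1), ubiquitin-conjugating (E2) and ligase (E3) enzymes: they rescue substrates from the proteasome, recycle ubiquitin, or edit the ubiquitin marks that serve as signals on histones, DNA repair proteins and membrane receptors. In nervous tissue the best known member is UCHL1, one of the most abundant proteins of neurons.

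The libraries held 16495116 to 20832700 counts each. STAMBP itself had 42.9 and 40.0 CPM in the libraries labelled KO+CFLAR, 40.4 and 45.3 in KO+STAMBP, 19.5 and 16.9 in KO1, 19.2 and 18.9 in KO2 and 43.4 and 47.2 in WT. CFLAR, an inhibitor of death receptor signalling, had 31.3 and 29.4 CPM in the libraries labelled KO+CFLAR, 32.1 and 32.1 in KO+STAMBP, 257 and 248 in KO1, 247 and 264 in KO2 and 34.2 and 30.4 in WT. The libraries labelled KO+CFLAR thus had STAMBP near the WT level and CFLAR no higher than WT, which goes against their label, so they are called by it only as a label and counts are also given without them. Between them and KO+STAMBP neither gene was called (log2 change -0.05 for STAMBP and -0.08 for CFLAR). These levels therefore do not tell the rescues apart, and whether KO+STAMBP carries its construct was not tested. Summed levels of marker lists differed widely between the groups. Epithelial markers (12 genes, all 12 called higher in KO) summed to 54.4 to 63.5 CPM in the 4 rescue libraries, 8404 to 8876 CPM in the 4 KO libraries and 31.9 to 33.9 CPM in WT, where OVOL1 was at 0 in both libraries and KRT7 and GRHL2 were at 0 in 1 library each. Neuron markers (14 genes, all 14 called lower in KO) summed to 7037 to 7146 CPM in the rescue libraries, 877 to 900.2 CPM in KO and 4935 to 4972 CPM in WT; NEUROD6 was at 0 in 1 KO1 and both KO2 libraries. Neural progenitor markers (9 of 12 lower, 2 higher) summed to 4369 to 4549 CPM in the rescue libraries, 3272 to 3287 CPM in KO and 7750 to 7876 CPM in WT. Mesenchyme markers (4 of 6 higher, 1 lower) were at 95.6 to 122 CPM in the rescues, 2054 to 2132 CPM in KO and 100.1 to 104 CPM in WT. Astroglia markers (2 of 4 lower) were at 3.69 to 4.54 CPM in the rescues, 0.977 to 1.27 CPM in KO and 34.2 to 35.3 CPM in WT. Proliferation genes (all 12 lower) were at 1051 to 1244 CPM in the rescues, 259 to 270.4 CPM in KO and 1872 to 1888 CPM in WT. Single genes weighed heavily in some of these sums. In KO1 the progenitor markers VIM and NES had 76038 and 21904 counts, beside 13 for FABP7 and 133 for PTPRZ1. COL1A1 and COL1A2 had 34589 and 34868 counts in KO1, beside 85 for TWIST1. In WT S100B had 1161 counts, beside 13 for GFAP. In bulk RNA, fewer cells of a type and less RNA per cell cannot be told apart, and the part of these markers in the changes below was not tested.

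In KO cells, taken as the equally weighted mean of KO1 and KO2, 17 of the 56 deubiquitinase genes were higher than in WT and 20 were lower at a Benjamini-Hochberg adjusted p under 0.05 in edgeR's quasi-likelihood test over all 21063 genes tested. That was 66.1% of the members, beside 76.2% of all genes tested (36.8% higher and 39.4% lower). Changes of at least 2-fold were found for 5 members in the higher direction and 4 in the lower, or 8.93% and 7.14%, beside 20% and 24.1% of all genes. The median size of the log2 change was 0.37 over the members and 0.90 over all genes tested, and the median signed change was -0.01 over the members and -0.04 over all genes. The members therefore moved in both directions in similar numbers, most by less than 2-fold. With both libraries labelled KO+CFLAR left out of the fit, 18 members were higher and 22 lower. Scaling by library size alone moved the median of all genes by -0.18 on the log2 scale and gave 15 members higher and 30 lower. Of all genes called, 41.3% were higher with that scaling, beside 48.3% in the main fit. The split between the directions thus depends on the scaling, for all genes as for the members. The 5 members that rose at least 2-fold were USP53, USP43, UCHL3, USP25 and USP54, and the 4 that fell at least 2-fold were UCHL1, USP13, USP11 and USP1. All 9 were called under each of the 20 alternative settings.

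**Figure D1:**
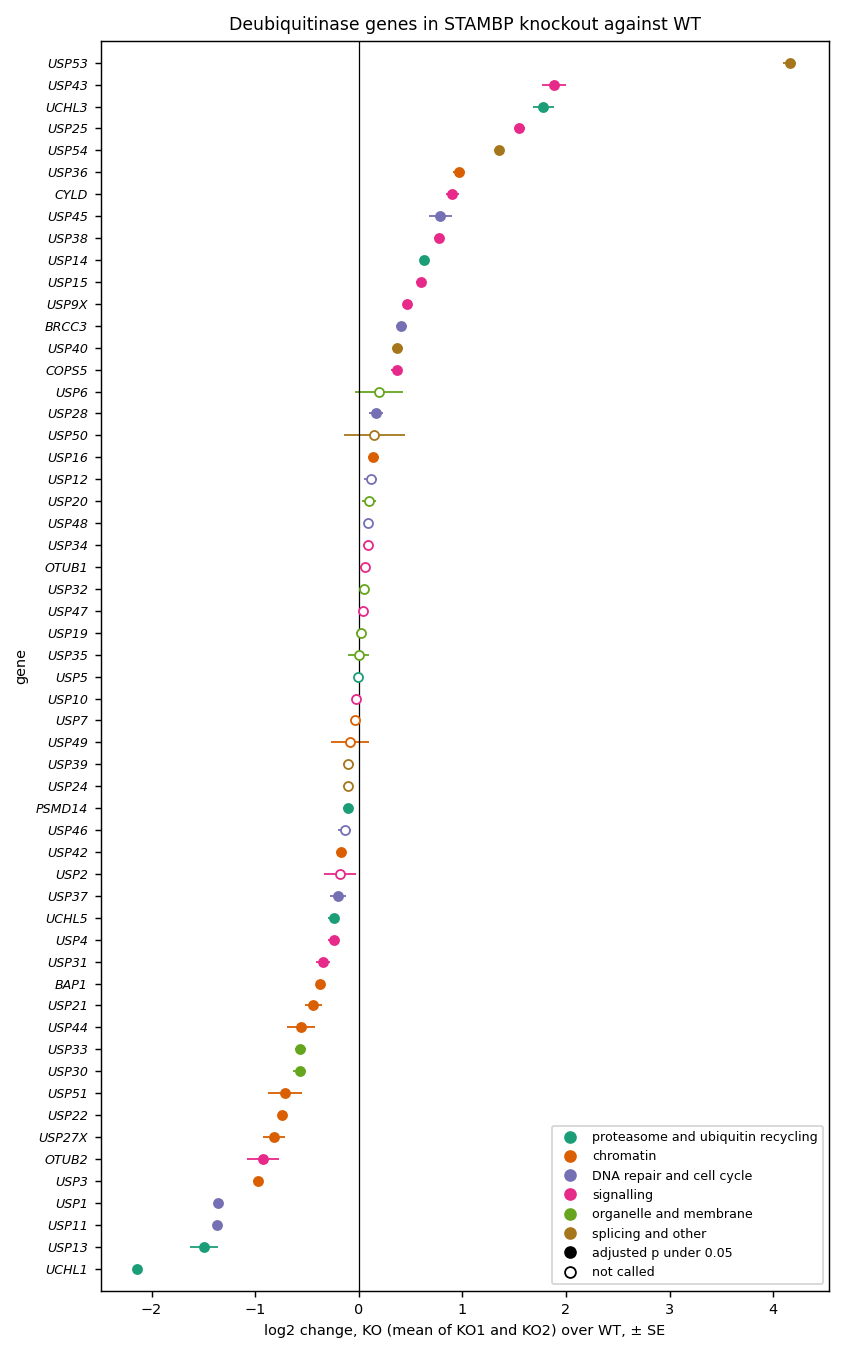
Log2 change (horizontal axis) of each of the 56 deubiquitinase genes in KO, the mean of KO1 and KO2, over WT, with bars of ± 1 SE, ordered by size and coloured by role. Filled points passed an adjusted p under 0.05 and open points did not. USP53 stands alone at 4.16, UCHL1 is at the other end at -2.14, and most of the others lie within 1 log2 unit of 0.

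Of the 7 enzymes of the proteasome and of ubiquitin recycling, 2 rose (UCHL3 and USP14), 4 fell (UCHL1, USP13, UCHL5 and PSMD14) and USP5 was not called. These are 28.6% higher and 57.1% lower, beside 36.8% and 39.4% of all genes. UCHL1, a hydrolase so abundant in neurons that its protein serves as a neuronal marker, had 452 and 466 CPM in the libraries labelled KO+CFLAR, 484 and 487 in KO+STAMBP, 90.7 and 91.9 in KO1, 88.6 and 92.2 in KO2 and 384 and 415 in WT. All 4 KO libraries were far below the other 6, with no overlap, and the rescue libraries stood above WT. In KO UCHL1 was at 0.228 of the WT level (log2 change -2.14 ± 0.04, adjusted p = 4.99e-16). The 14 neuron markers, of which UCHL1 is not one, fell in the same libraries, to 877 to 900.2 CPM in KO against 4935 to 4972 CPM in WT, and their part in the UCHL1 result was not tested.

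UCHL3, a close relative of UCHL1 that cleaves ubiquitin and NEDD8 from small adducts and precursors, moved the other way. It had 8.99 and 9.71 CPM in the libraries labelled KO+CFLAR, 10.5 and 10.5 in KO+STAMBP, 26.8 and 29.3 in KO1, 25.9 and 30.4 in KO2 and 7.62 and 8.66 in WT. The lowest KO library held 25.9 CPM and the highest other library 10.5 CPM. The change in KO was 3.44-fold (log2 change 1.78 ± 0.10, adjusted p = 7.39e-10). In the GENCODE annotation 37.2% of the exonic length of UCHL3 is shared with AL137782.1 on the same strand and LMO7-AS1 on the other, and no strand setting is known for the counting, so reads of these genes cannot be told apart from those of UCHL3.

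Promoter sequences are shown for UCHL1, the member with the largest fall, UCHL3, its relative that rose, and USP53, the member with the largest rise. They come from RefSeq (GRCh38.p14), run 5′ to 3′ on the gene's strand from 250 bases before to 50 bases after the annotated start, and have each match to GGGCGG, the core of the GC box bound by SP1-type factors, in capitals (searched on both strands, where the reverse match reads CCGCCC). UCHL1 lies on the plus strand at chr4:41256678-41256977 with 63.0% G and C and 1 match; UCHL3 has a pair of annotated starts on the plus strand, at chr13:75549252-75549551 with 65.3% G and C and no match and at chr13:75549541-75549840 with 59.3% G and C and 2 matches; USP53 lies on the plus strand at chr4:119212463-119212762 with 68.3% G and C and 3 matches.
UCHL1: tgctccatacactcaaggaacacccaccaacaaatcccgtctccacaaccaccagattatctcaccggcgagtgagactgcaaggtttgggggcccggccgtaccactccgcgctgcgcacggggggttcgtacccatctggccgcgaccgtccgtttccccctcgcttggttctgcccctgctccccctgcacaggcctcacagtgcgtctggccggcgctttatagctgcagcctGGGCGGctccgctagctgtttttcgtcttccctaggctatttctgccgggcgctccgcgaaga
UCHL3, first start: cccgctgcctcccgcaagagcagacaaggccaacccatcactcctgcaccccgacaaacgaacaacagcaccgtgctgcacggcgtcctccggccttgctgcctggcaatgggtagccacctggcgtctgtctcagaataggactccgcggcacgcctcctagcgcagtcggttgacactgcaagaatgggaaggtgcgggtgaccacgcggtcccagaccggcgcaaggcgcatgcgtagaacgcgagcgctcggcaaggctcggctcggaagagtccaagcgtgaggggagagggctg
UCHL3, second start: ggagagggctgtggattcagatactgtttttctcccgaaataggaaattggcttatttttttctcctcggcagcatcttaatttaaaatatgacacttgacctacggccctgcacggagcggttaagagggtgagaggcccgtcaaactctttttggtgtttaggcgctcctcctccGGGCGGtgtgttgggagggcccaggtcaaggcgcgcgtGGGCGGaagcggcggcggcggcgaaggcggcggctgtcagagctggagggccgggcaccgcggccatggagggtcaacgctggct
USP53: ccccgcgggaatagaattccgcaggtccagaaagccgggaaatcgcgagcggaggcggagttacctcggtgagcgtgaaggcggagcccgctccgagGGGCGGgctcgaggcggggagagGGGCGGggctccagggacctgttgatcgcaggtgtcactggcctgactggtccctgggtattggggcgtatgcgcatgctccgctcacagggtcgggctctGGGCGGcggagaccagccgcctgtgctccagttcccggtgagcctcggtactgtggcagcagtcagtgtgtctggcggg

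A promoter was found for 45 of the 56 members, with 63 annotated starts among them. GGGCGG was present in 46 of the 63 (73.0%), beside 45.0% of 35116 promoters of the same length genome-wide, and the median G and C content was 67.7% in member promoters and 58.7% in all. Other motifs were rare. On either strand, the AP-1 motif TGANTCA matched 2 member promoters (3.17%, beside 7.71% of all), both of UCHL5, and AACCNGTT, a motif of the epithelial grainyhead-like factors, matched 1 (1.59%, beside 1.73%), that of USP1. The E2F motif TTTNGCGC matched that of OTUB2 alone (1.59%, beside 1.79% of all), the CRE motif TGACGTCA that of CYLD alone (1.59%, beside 1.85%), and the palindromic motif of NRF1 none (0%, beside 1.24%). These matches describe letters in these windows and not binding.

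USP13, a paralog of USP5, had 44.4 and 40.0 CPM in the libraries labelled KO+CFLAR, 38.6 and 37.1 in KO+STAMBP, 20.6 and 19.0 in KO1, 18.5 and 9.53 in KO2 and 47.3 and 46.0 in WT. KO was lower than every other library, and the second KO2 library, at 9.53 CPM, lay well under the other 3 KO libraries. The KO change was -1.50 ± 0.14 on the log2 scale (adjusted p = 1.45e-07). Its paralog USP5, the main enzyme that disassembles unanchored chains, had 119 and 125 CPM in KO1, 124 and 131 in KO2 and 126 and 125 in WT and was not called (log2 change -0.01 ± 0.04, adjusted p = 0.868).

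The enzymes that sit on the proteasome moved little. PSMD14, the JAMM subunit of the proteasome lid, had 83.4 and 88.2 CPM in KO1, 91.9 and 93.9 in KO2 and 97.9 and 94.6 in WT. The KO2 libraries lay just below WT and the KO1 libraries further below (log2 change -0.11 ± 0.04, adjusted p = 0.0237); the call was lost with DESeq2, with median-of-ratios factors, with KO2 alone as the knockout, and without WT replicate 1 or KO1 replicate 1. UCHL5, which docks on the proteasome through ADRM1, had 28.5 and 29.6 CPM in KO1, 30.2 and 29.6 in KO2 and 34.2 and 35.5 in WT, with all KO libraries lower (log2 change -0.24 ± 0.06, adjusted p = 0.00117), a call lost with DESeq2. USP14, the third proteasome-bound enzyme, was the exception, with 151 and 164 CPM in KO1, 152 and 155 in KO2 and 99.5 and 101 in WT, all 4 KO libraries above both WT libraries (log2 change 0.63 ± 0.04, adjusted p = 2.9e-09). Summed over the 7 enzymes, the level was 853 to 887 CPM in the rescue libraries, 519.8 to 547 CPM in KO and 796 to 826 CPM in WT. UCHL1 alone supplied 384 and 415 CPM of the WT sums. The other 6 enzymes, a group set apart after the values were seen, summed to 398 to 401 CPM in the rescue libraries, 429 to 455.5 CPM in KO and 411 to 412 CPM in WT, so without UCHL1 the sum in KO was not below that in WT.

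Of the 12 chromatin enzymes, 8 fell, 2 rose (USP36 and USP16) and 2, USP7 and USP49, were not called, or 16.7% higher and 66.7% lower, beside 36.8% and 39.4% of all genes. The fall included all 3 enzymes that can take the histone H2B-directed catalytic place beside ATXN7L3 and ENY2. USP22, the one that belongs to the SAGA coactivator complex, had 606 and 626 CPM in the libraries labelled KO+CFLAR, 602 and 609.6 in KO+STAMBP, 337 and 327 in KO1, 340.2 and 336 in KO2 and 549 and 571 in WT. The 4 KO libraries were close to each other and below all the others. In KO USP22 was at 0.598 of WT (log2 change -0.74 ± 0.03, adjusted p = 8.04e-12). In the annotation 13.2% of its exonic length is shared with the opposite-strand genes AC087393.2 and CCDC144NL-AS1, whose reads cannot be told apart from its own. USP27X, an X-linked gene without introns, had 6.77 and 5.86 CPM in KO1, 7.21 and 7.16 in KO2 and 11.2 and 12.6 in WT, with no overlap (log2 change -0.82 ± 0.11, adjusted p = 6.24e-06). The X-linked USP51 had 5.01 and 5.47 CPM in KO1, 4.89 and 3.75 in KO2 and 7.16 and 8.36 in WT, again with every KO library below WT (log2 change -0.71 ± 0.16, adjusted p = 0.00128). Their shared partners divided: ENY2 was lower, at 48.3 CPM in KO and 71.9 CPM in WT, and ATXN7L3 was higher, at 124.7 CPM in KO and 97.7 CPM in WT.

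USP3, which removes ubiquitin from histones H2A and H2B, had 88.6 and 92.9 CPM in the libraries labelled KO+CFLAR, 95.6 and 87.4 in KO+STAMBP, 49.9 and 50.5 in KO1, 51.1 and 53.2 in KO2 and 101 and 101 in WT. The KO libraries stood at about the same level in both lines, below all others (log2 change -0.98 ± 0.05, adjusted p = 6.77e-11). Part of its exonic length, 22.7%, is shared with the opposite-strand gene USP3-AS1, and their reads cannot be told apart here. BAP1, the nuclear UCH enzyme that acts on histone H2A with ASXL proteins, had 84.2 and 86.7 CPM in KO1, 94.1 and 86.6 in KO2 and 113 and 114 in WT and was lower in KO (log2 change -0.37 ± 0.05, adjusted p = 3.63e-06). USP21 (-0.44 ± 0.08 on the log2 scale) and USP42 (-0.17 ± 0.05) were also lower, as was USP44, a low-level gene described with the rescues. USP36, a nucleolar enzyme needed for ribosome production, had 43.8 and 38.2 CPM in the libraries labelled KO+CFLAR, 40.2 and 41.2 in KO+STAMBP, 81.7 and 81.1 in KO1, 82.4 and 82.7 in KO2 and 40.7 and 43.1 in WT. It stood out among the chromatin enzymes as the sole member with a large rise, 1.96-fold in KO (log2 change 0.97 ± 0.06, adjusted p = 7.53e-10), and its KO libraries did not overlap the others. USP16, which acts on histone H2A in mitosis, rose by 0.14 on the log2 scale (adjusted p = 0.0322), a call that 9 alternative settings lost, library size alone turning it to -0.04. Summed over the 12 enzymes, the level was 1228 to 1263 CPM in the rescue libraries, 905 to 921 CPM in KO and 1189 to 1205 CPM in WT. USP22 alone supplied 549 and 571 CPM of the WT sums and 327 to 340 CPM of the KO sums.

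Of the 9 enzymes of DNA repair and the cell cycle, 3 rose (USP45, BRCC3 and USP28), 3 fell (USP1, USP11 and USP37) and 3 were not called, 33.3% in each direction, a little under the 36.8% and 39.4% of all genes. USP1, which with WDR48 removes monoubiquitin from FANCD2 and PCNA, had 102 and 96.2 CPM in the libraries labelled KO+CFLAR, 92.2 and 90.2 in KO+STAMBP, 49.3 and 51.0 in KO1, 47.0 and 45.2 in KO2 and 127 and 120.2 in WT. KO was lowest, WT highest and both rescues in between, without overlap between any of these. It fell in KO (log2 change -1.36 ± 0.04, adjusted p = 5.8e-13). The 12 proliferation genes followed the same order of groups, at 1051 to 1244 CPM in the rescue libraries, 259 to 270.4 CPM in KO and 1872 to 1888 CPM in WT, and their part in the USP1 result was not tested. WDR48 itself had 81.8 CPM in KO and 88.9 CPM in WT (log2 change -0.12).

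USP11, an X-linked enzyme with roles in double-strand break repair, had 238 and 248 CPM in the libraries labelled KO+CFLAR, 249 and 251 in KO+STAMBP, 79.6 and 84.3 in KO1, 83.9 and 89.7 in KO2 and 215 and 221 in WT. The KO libraries were far below the rest and the rescue libraries above WT (log2 change -1.37 ± 0.04, adjusted p = 1.35e-13 in KO). USP45, which acts on the repair nuclease subunit ERCC1, had 25.7 and 21.6 CPM in KO1, 23.5 and 20.4 in KO2 and 13.9 and 12.6 in WT, higher in every KO library (log2 change 0.79 ± 0.11, adjusted p = 9.72e-06). BRCC3, the JAMM enzyme of the BRCA1-A and BRISC complexes, had 40.3 and 42.4 CPM in KO1, 45.6 and 44.3 in KO2 and 32.5 and 32.4 in WT, with KO above WT in all 4 libraries (log2 change 0.41 ± 0.06, adjusted p = 9.8e-06). USP28 (0.17 ± 0.07 on the log2 scale) and USP37 (-0.20 ± 0.08) changed by little. USP28 was called in 10 of 20 alternatives and USP37 in 15 of 20. The USP28 call was lost, among others, with DESeq2, without either WT library, KO1 replicate 1, KO2 replicate 1 or either KO+STAMBP library, and with library size alone, which turned it to -0.01; that of USP37 was lost with DESeq2, with KO2 alone, and without WT replicate 1, KO1 replicate 2 or KO2 replicate 1. For USP37, 32.8% of the exonic length is shared with VIL1 on the opposite strand. USP12, USP46 and USP48 had changes of 0.11, -0.14 and 0.09 and were not called.

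Of the 15 signalling enzymes, the largest class, 7 rose, 3 fell and 5 were not called, or 46.7% higher and 20% lower, beside 36.8% and 39.4% of all genes. USP43 had 3.63 and 3.36 CPM in the libraries labelled KO+CFLAR, 4.28 and 4.01 in KO+STAMBP, 22.9 and 21.6 in KO1, 25.5 and 22.0 in KO2 and 5.82 and 6.6 in WT. It was high in the KO libraries, and both rescues were below WT, with no overlap between these 3 levels. The change in KO was 3.69-fold (log2 change 1.88 ± 0.11, adjusted p = 1.08e-09). USP25, a regulator of TNF-receptor and interferon signalling, had 29.8 and 26.6 CPM in the libraries labelled KO+CFLAR, 27.4 and 28.7 in KO+STAMBP, 84.2 and 83.0 in KO1, 87.2 and 83.3 in KO2 and 28.6 and 29.0 in WT. The 6 libraries outside KO lay between 26.6 and 29.8 CPM, and KO was 2.93 times WT (log2 change 1.55 ± 0.06, adjusted p = 3.27e-12). CYLD, a tumour suppressor that restrains NF-kappaB signalling, had 36.4 and 33.7 CPM in the libraries labelled KO+CFLAR, 35.5 and 34.2 in KO+STAMBP, 59.5 and 61.6 in KO1, 56.3 and 60.4 in KO2 and 34.3 and 29.4 in WT. It was 1.87-fold higher in KO (log2 change 0.90 ± 0.07, adjusted p = 1.27e-08), and no KO library overlapped the others.

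USP38 (0.77 ± 0.05 on the log2 scale), USP15 (0.60 ± 0.04), USP9X (0.46 ± 0.04) and COPS5 (0.36 ± 0.05) were also higher in KO. COPS5, the JAMM enzyme that removes NEDD8 from cullins within the COP9 signalosome, had 56.8 and 61.2 CPM in KO1, 64.0 and 62.2 in KO2 and 48.3 and 46.5 in WT. USP9X counts are uncertain where reads match its Y-linked near-copy. The 3 that fell were OTUB2, USP31 and USP4. OTUB2 had 5.07 and 7.95 CPM in KO1, 7.08 and 5.83 in KO2 and 12.2 and 12.3 in WT; it was a low-level gene with visible spread within KO1, yet no KO library reached WT (log2 change -0.92 ± 0.15, adjusted p = 6.26e-05), and 15.1% of its exonic length is shared with DDX24. Its paralog OTUB1, which blocks E2 enzymes without cutting, had 78.4 and 76.4 CPM in KO1, 82.7 and 84.0 in KO2 and 75.7 and 78.6 in WT and was not called (log2 change 0.06 ± 0.04, adjusted p = 0.22). USP2, USP10, USP34 and USP47 were the other 4 members of the class that were not called, with log2 changes between -0.18 and 0.09. Summed over the 15 signalling enzymes, the level was 1053 to 1142 CPM in the rescue libraries, 1391 to 1401 CPM in KO and 1129 to 1153 CPM in WT.

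Of the 7 enzymes of organelles and membranes, none rose and 2 fell, USP30 and USP33, or 28.6% lower, beside 39.4% of all genes. USP30, which sits on the outer mitochondrial membrane and opposes mitophagy, had 22.2 and 22.0 CPM in KO1, 21.3 and 21.6 in KO2 and 31.8 and 32.9 in WT (log2 change -0.57 ± 0.06, adjusted p = 7.26e-07). USP33 had 75.9 and 86.6 CPM in KO1, 81.9 and 86.7 in KO2 and 121 and 123 in WT (log2 change -0.57 ± 0.06, adjusted p = 3.09e-07). In both, each KO library was below each WT library. USP6, USP19, USP20, USP32 and USP35 were not called, at log2 changes of 0.00 to 0.19. USP6 and USP32 are alike over part of their sequence, and their split of shared reads is uncertain.

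Of the 6 remaining members, the splicing and other class, 3 rose (50%, beside 36.8% of all genes), none fell and USP24, USP39 and USP50 were not called. USP53, a protein of tight junctions whose gene is mutated in an inherited cholestasis, had 8.52 and 8.48 CPM in the libraries labelled KO+CFLAR, 8.72 and 8.55 in KO+STAMBP, 144 and 141 in KO1, 140.0 and 137 in KO2 and 8.5 and 7.33 in WT. The 6 libraries outside KO held 7.33 to 8.72 CPM and overlapped, and the 4 KO libraries held 137 to 144 CPM. It averaged 141 ± 2.82 CPM in KO (SD, n = 4) and 7.92 ± 0.821 CPM in WT (SD, n = 2), a 17.9-fold difference (log2 change 4.16 ± 0.06, adjusted p = 1.77e-16) and the largest among the 56. The 12 epithelial markers, which do not include USP53, were high in the same 4 libraries, and their part in the USP53 result was not tested. USP54, its paralog, had 38.2 and 41.7 CPM in the libraries labelled KO+CFLAR, 45.2 and 46.5 in KO+STAMBP, 123 and 119.9 in KO1, 123 and 125 in KO2 and 48.0 and 48.2 in WT. Every KO library was far above all others (log2 change 1.35 ± 0.05, adjusted p = 1.34e-12); 16.1% of its exonic length is shared with the opposite-strand gene PPP3CB-AS1. USP40 rose by 0.37 on the log2 scale (adjusted p = 2.85e-05). The USP53 gene lies on chromosome 4 from 119212587 to 119295517 (GRCh38, plus strand) and UCHL1 on the same chromosome from 41256413 to 41268455.

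**Figure D2:**
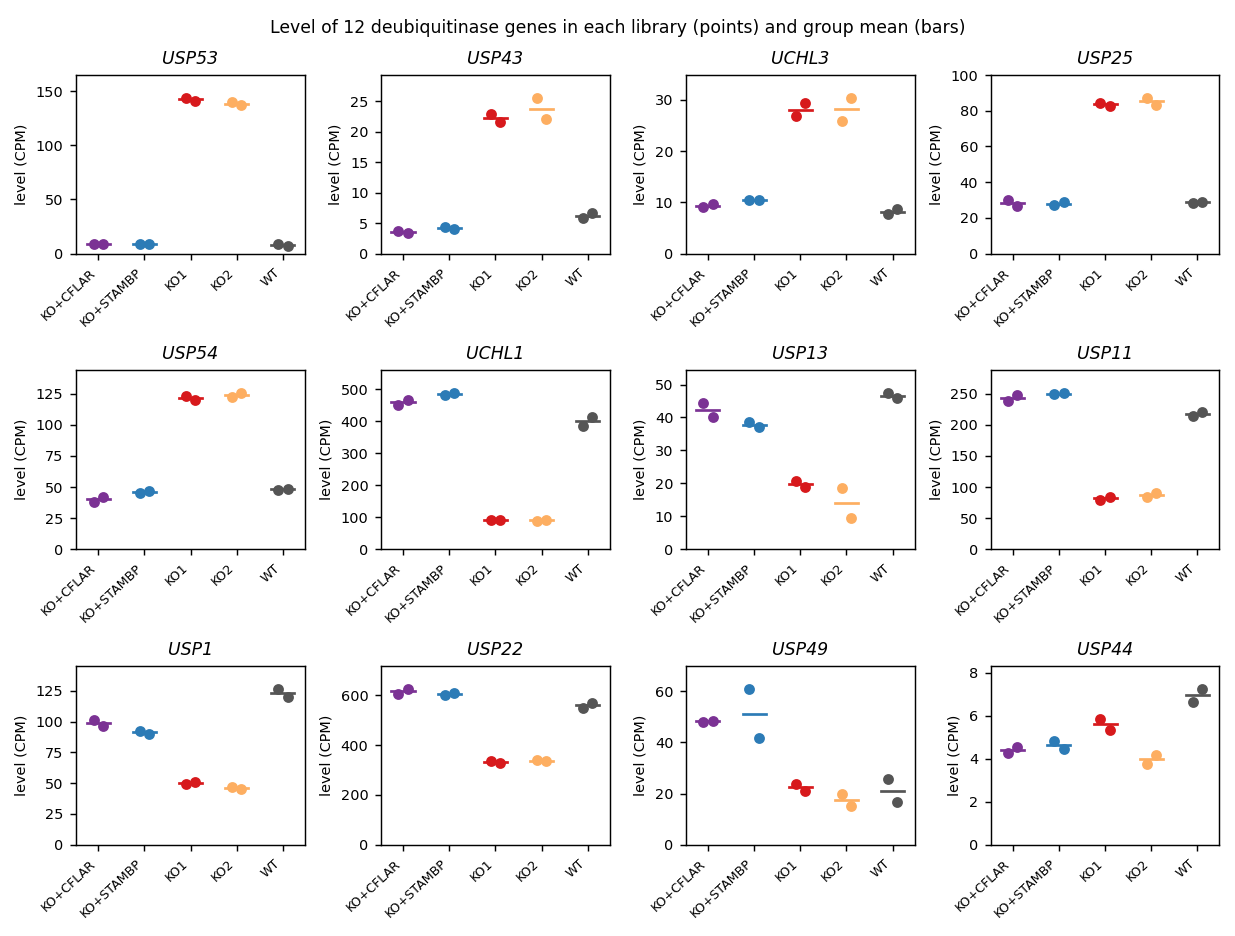
Level in CPM (vertical axis, from 0, with its own scale in each panel) of 12 deubiquitinase genes in each library (points, 2 per group) and the group mean (horizontal bars). The upper 5 genes are high in KO1 and KO2 alone, the next 5 are low there, and USP49 and USP44 separate the groups differently.

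The heat map of all members by library shows that the pattern was shared by the 4 KO libraries. KO1 alone gave 15 members higher and 19 lower than WT (60.7%, beside 72.9% of all genes, 35.6% higher and 37.3% lower), and KO2 alone 17 higher and 18 lower (62.5%, beside 73.1% of all genes, 35.8% higher and 37.3% lower). Library size alone gave 15 higher and 30 lower for KO1 and 15 higher and 28 lower for KO2. Of all genes called, 42% (KO1) and 41.6% (KO2) were higher with that scaling, beside 48.8% and 49% in the main fit. Between KO1 and KO2 themselves no member was called by edgeR or by DESeq2, beside 0.157% of all genes by edgeR, and 5 members had an unadjusted p under 0.05 (8.93%, beside 5.68% of all genes). These were USP13, with a log2 difference of 0.53 (KO1 higher), USP44, with 0.50, USP38, with 0.12, and PSMD14 and OTUB1, with -0.12 and -0.11. For USP13 this rests on KO2 replicate 2, at 9.53 CPM. KO2 replicate 1, at 18.5 CPM, was close to the 20.6 and 19.0 CPM of KO1. Without KO2 replicate 1, which leaves the low second library as the sole KO2 library and assumes that it varies like the other groups, the difference was 1.06. Over 18 alternatives it ranged from 0.11 to 1.06. With no filter on low counts USP13 and USP49 were called. The size of the KO1 against KO2 difference had a median of 0.05 over the members and 0.09 over all genes.

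**Figure D3:**
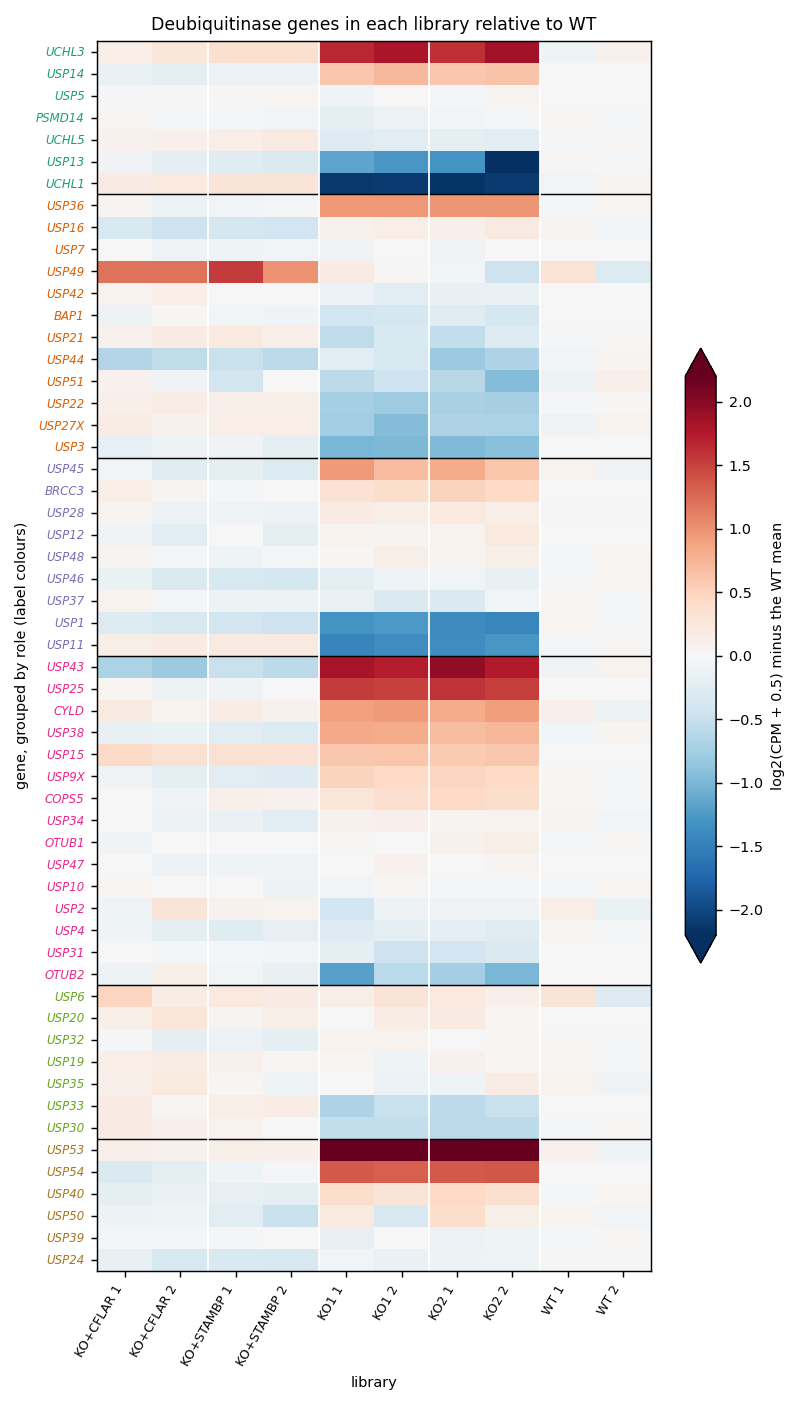
Level of each deubiquitinase gene in each library as log2(CPM + 0.5) minus the mean of the WT libraries (colour, red above WT and blue below), with libraries in columns and genes in rows, grouped by role. Colours end at 2.2 log2 units, so the USP53 difference in KO runs off the scale; the KO1 and KO2 columns look alike, and the rescue columns are mostly pale, except for USP49.

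Both rescues were set against KO, and share the KO libraries. In KO+STAMBP, 17 members were higher than in KO and 24 were lower, 73.2% beside 77.9% of all genes (40.1% higher and 37.8% lower), and the same counts were found without the libraries labelled KO+CFLAR. For the libraries labelled KO+CFLAR the counts were 20 higher and 23 lower, 76.8% beside 78% of all genes (40% higher and 38% lower). With library size alone, which moved the median of all genes by 0.21 on the log2 scale for KO+STAMBP and 0.20 for KO+CFLAR, the splits were 29 higher and 14 lower for KO+STAMBP and 31 higher and 14 lower for KO+CFLAR. Of all genes called, 59.5% (KO+STAMBP) and 59% (KO+CFLAR) were higher with that scaling, beside 51.5% and 51.3% in the main fit. USP53 was lower than in KO in both rescues: its log2 change was -4.05 ± 0.06 in the KO+CFLAR-labelled pair and -4.02 ± 0.06 in KO+STAMBP. In the KO+CFLAR-labelled pair USP43 changed against KO by -2.71, USP25 by -1.58, UCHL3 by -1.59 and USP54 by -1.62. In KO+STAMBP these changes were -2.47 for USP43, -1.59 for USP25, -1.42 for UCHL3 and -1.42 for USP54. UCHL1 was higher than in KO by 2.34 ± 0.04 in the KO+CFLAR-labelled pair, USP11 by 1.53, USP13 by 1.35 and USP1 by 1.04. In KO+STAMBP the increases were 2.42 ± 0.04 for UCHL1, 1.57 for USP11, 1.19 for USP13 and 0.92 for USP1. All of these passed the test with an adjusted p of 2.26e-06 or less in edgeR. They had been picked for their large changes in KO against WT, which rest on the same KO libraries, so these calls are not separate support.

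USP49, a histone H2B-directed enzyme linked to splicing, had another pattern. It had 48.1 and 48.3 CPM in the libraries labelled KO+CFLAR, 60.9 and 41.5 in KO+STAMBP, 23.7 and 21.1 in KO1, 19.9 and 15.0 in KO2 and 25.5 and 16.8 in WT. Both pairs of rescue libraries were above all KO and WT libraries, which overlapped, and the KO+STAMBP libraries were far apart from each other. KO did not pass the test against WT (log2 change -0.09 ± 0.18, adjusted p = 0.681). Against WT the change was 1.20 ± 0.18 (adjusted p = 0.000127) or 2.3-fold in the libraries labelled KO+CFLAR, and 1.29 ± 0.18 (adjusted p = 6.74e-05) or 2.45-fold in KO+STAMBP. These calls held in all 17 alternatives run for KO+CFLAR, with log2 changes from 0.92 to 1.51, and all 18 for KO+STAMBP, with log2 changes from 0.99 to 1.61.

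Against WT, KO+STAMBP had 6 members higher and 13 lower (33.9%, beside 34.9% of all genes, 16.4% higher and 18.5% lower), and 7 higher and 14 lower without the libraries labelled KO+CFLAR. The libraries labelled KO+CFLAR had 6 higher and 12 lower (32.1%, beside 33.7% of all genes, 15.8% higher and 17.9% lower). Both sets share the WT libraries. Scaled by library size alone, 8 were higher and 10 lower in KO+STAMBP, and 7 higher and 8 lower in KO+CFLAR. Of all genes called, 52.8% (KO+STAMBP) and 51% (KO+CFLAR) were higher with that scaling, beside 46.9% and 46.8% in the main fit. Single libraries mattered: the 13 lower members in KO+STAMBP became 7 without KO+STAMBP replicate 2 and 8 without WT replicate 2, and the 12 in KO+CFLAR became 7 without WT replicate 2, 7 without KO+CFLAR replicate 2, and 7 with DESeq2. Apart from USP49, no change reached 2-fold. The median size of the log2 change was 0.13 in KO+STAMBP and 0.14 in KO+CFLAR over the members, beside 0.28 and 0.27 over all genes.

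Among the members above WT in the rescues were UCHL1, USP11, USP22 and USP15. UCHL1 was higher by 0.20 ± 0.04 in the libraries labelled KO+CFLAR and 0.28 ± 0.04 in KO+STAMBP, and USP11 by 0.16 ± 0.04 (KO+CFLAR label) and 0.20 ± 0.04 (KO+STAMBP). The USP22 call in KO+STAMBP was lost without WT replicate 1 or either KO+STAMBP library, and in the KO+CFLAR-labelled pair the USP22 and USP11 calls were each lost without WT replicate 1 or KO+CFLAR replicate 2. The neuron markers were at 7037 to 7146 CPM in these 4 libraries and 4935 to 4972 CPM in WT, and their part was not tested. USP15, a regulator of TGF-beta signalling, had 77.5 and 73.1 CPM in the libraries labelled KO+CFLAR, 73.0 and 71.6 in KO+STAMBP, 87.6 and 87.8 in KO1, 86.4 and 87.6 in KO2 and 57.0 and 58.3 in WT. It was thus lowest in WT, intermediate in both rescues and highest in KO, with no overlap between these levels; its changes against WT were 0.39 ± 0.05 under the KO+CFLAR label, 0.33 ± 0.05 in KO+STAMBP and 0.60 ± 0.04 in KO. UCHL3 was called above WT in KO+STAMBP (log2 change 0.36 ± 0.13, adjusted p = 0.0381) and not in the libraries labelled KO+CFLAR (log2 change 0.20 ± 0.13, adjusted p = 0.27); the call was lost with DESeq2 and without WT replicate 1 or either KO+STAMBP library.

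Below WT in both rescues, USP43 changed by -0.83 ± 0.15 in the libraries labelled KO+CFLAR and -0.59 ± 0.15 in KO+STAMBP; the KO+STAMBP call was lost without WT replicate 2 or KO+STAMBP replicate 2. USP1 changed by -0.32 ± 0.05 under the KO+CFLAR label and -0.44 ± 0.05 in KO+STAMBP. USP16 had 43.6 and 40.0 CPM in the libraries labelled KO+CFLAR, 42.7 and 41.1 in KO+STAMBP, 59.1 and 61.1 in KO1, 59.3 and 63.1 in KO2 and 57.2 and 53.2 in WT, so that both rescues were below WT and KO (-0.40 ± 0.06 under the KO+CFLAR label and -0.40 ± 0.06 in KO+STAMBP, against WT). USP46, which like its paralog USP12 works with WDR48, had 54.4 and 48.3 CPM in the libraries labelled KO+CFLAR, 47.2 and 46.4 in KO+STAMBP, 51.8 and 56.8 in KO1, 58.2 and 53.8 in KO2 and 59.0 and 62.1 in WT; the rescue libraries were below WT (-0.24 ± 0.07 under the KO+CFLAR label and -0.37 ± 0.07 in KO+STAMBP) and KO did not pass the test (log2 change -0.14 ± 0.06, adjusted p = 0.0517). For USP46 the call in KO+CFLAR was lost with DESeq2, without WT replicate 2 and without KO+CFLAR replicate 2. USP44, a regulator of the spindle checkpoint, had 4.24 and 4.54 CPM in the libraries labelled KO+CFLAR, 4.8 and 4.44 in KO+STAMBP, 5.84 and 5.34 in KO1, 3.77 and 4.16 in KO2 and 6.63 and 7.24 in WT. It was highest in WT and below it in every other library, with log2 changes of -0.66 ± 0.16 under the KO+CFLAR label, -0.59 ± 0.16 in KO+STAMBP and -0.56 ± 0.14 in KO. DESeq2 called USP44 in none of these 3 comparisons, KO1 alone was not called against WT, and the KO+STAMBP call was lost without WT replicate 2 or KO+STAMBP replicate 2.

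**Figure D4:**
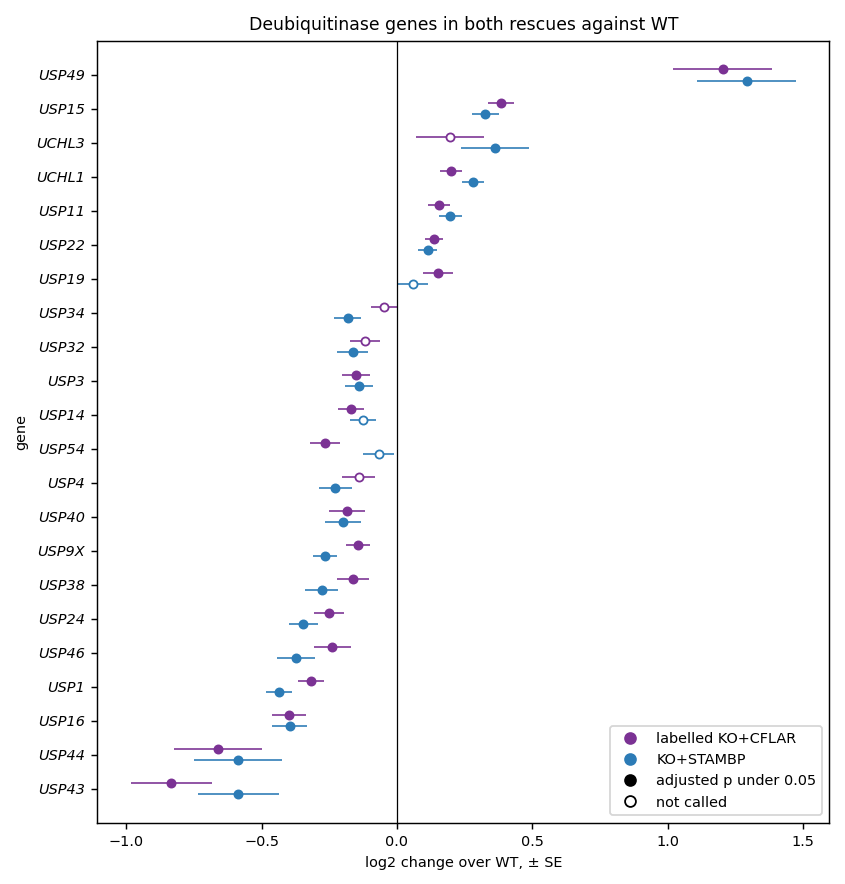
Log2 change over WT (horizontal axis) with bars of ± 1 SE for each deubiquitinase gene called in at least 1 rescue, in the libraries labelled KO+CFLAR (purple) and in KO+STAMBP (blue). Filled points passed an adjusted p under 0.05. USP49 is the sole gene past 1 log2 unit, at 1.20 and 1.29, and USP43 and USP44 are at the low end.

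Between the libraries labelled KO+CFLAR and KO+STAMBP no member was called by edgeR or DESeq2, beside 1.09% of all genes by edgeR. An unadjusted p under 0.05 was found for 5 members (8.93%, beside 12.3% of all genes). USP1, USP9X and USP34 were higher in the libraries labelled KO+CFLAR by 0.12, 0.12 and 0.14 on the log2 scale, and USP54 and COPS5 were lower, with changes of -0.20 and -0.14.

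Levels of different genes were set side by side per kilobase of merged exon length. That length joins the exons of all annotated transcripts of a gene and may exceed that of the transcripts expressed, so the order between genes is approximate. By this measure UCHL1 ranked first among the members in WT at 175 CPM per kb, followed by USP22 at 82.3, USP11 at 41.4, USP5 at 33.6 and USP1 at 29.0 CPM per kb. In KO the order was USP22 at 49.2, UCHL1 at 39.8, USP5 at 33.4, USP14 at 26.0 and USP7 at 24.0 CPM per kb. USP53 stood at rank 55 of 56 in WT, with 0.662 CPM per kb, and at rank 20 in KO, with 11.8 CPM per kb. Summed over all 56 members, the level was 4470 to 4610 CPM in the rescue libraries, 4160 to 4225 CPM in KO and 4516 to 4534 CPM in WT. The composition moved more than the total: signalling enzymes made up 23.5 to 24.8% of member counts in the rescues, 33.0 to 33.4% in KO and 24.9 to 25.5% in WT, and the proteasome and recycling class 18.5 to 19.8% in the rescues, 12.5 to 13.0% in KO and 17.6 to 18.2% in WT. The lower share of the second class in KO was that of UCHL1: its other 6 enzymes made up 8.7 to 8.95% of member counts in the rescues, 10.3 to 10.9% in KO and 9.07 to 9.13% in WT. The splicing and other class made up 6.27 to 6.45% in the rescues, 12.6 to 13% in KO and 7.33 to 7.38% in WT. Within it USP53 made up 0.185 to 0.193%, 3.25 to 3.46% and 0.162 to 0.188% in the same order. USP54 made up 0.83 to 1.04%, 2.86 to 2.97% and 1.06%, while USP39 stayed at 1.23 to 1.41% across the libraries. DNA repair and cell cycle enzymes made up 14.7 to 14.9%, 11.9 to 12.3% and 15.2% in the same order. Of these, USP1 made up 2.02 to 2.21%, 1.07 to 1.22% and 2.65 to 2.8%, and USP11 5.16 to 5.61%, 1.91 to 2.12% and 4.76 to 4.88%. Chromatin enzymes made up 27 to 28%, 21.6 to 21.8% and 26.3 to 26.6%, and USP22 alone 13.1 to 13.9%, 7.79 to 8.11% and 12.2 to 12.6%.

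**Figure D5:**
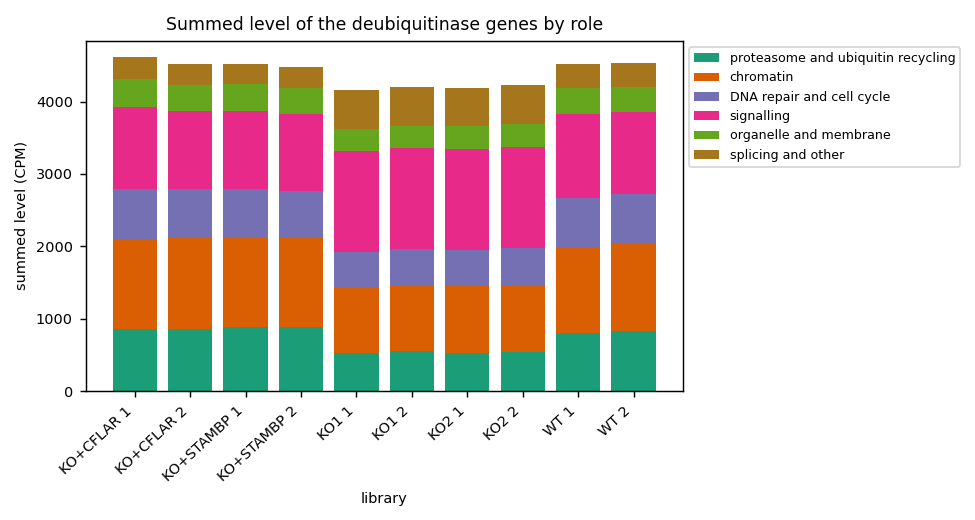
Summed level in CPM (vertical axis, from 0) of the deubiquitinase genes in each library, stacked by role. The 4 KO bars total 4160 to 4225 CPM. They hold more of the signalling class and of the splicing and other class than the other 6 bars. They hold less of the proteasome, chromatin, DNA repair and organelle classes. In the proteasome class the difference is that of UCHL1. In the chromatin class USP22 alone supplied 549 and 571 CPM in WT and 327 to 340 CPM in KO. In the splicing and other class USP53 supplied 8.5 and 7.33 CPM in WT and 137 to 144 CPM in KO. In the DNA repair class USP11 supplied 215 and 221 CPM in WT and 79.6 to 89.7 CPM in KO.

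Several pairs of related enzymes were called in opposite directions in KO. Besides UCHL1 and UCHL3 (-2.14 and 1.78 on the log2 scale), these were USP4 and USP15 (-0.24 and 0.60), USP42 and USP36 (-0.17 and 0.97), and USP31 and USP43 (-0.34 and 1.88). USP4 had 65.2 and 69.3 CPM in KO1, 69.3 and 66.1 in KO2 and 82.5 and 77.2 in WT, and every KO library was below WT. USP42 had 44.6 and 41.1 CPM in KO1, 43.9 and 44.5 in KO2 and 48.9 and 49.1 in WT, with a small shift that DESeq2 did not call. USP31 had 34.7 and 28.9 CPM in KO1, 29.7 and 31.7 in KO2 and 39.6 and 39.9 in WT; 23% of its exonic length is shared with other genes. In other pairs both moved the same way, as did USP53 with USP54 and USP22 with USP27X and with USP51, or 1 of the pair alone was called, as in USP13 with USP5, USP33 with USP20 and USP38 with USP35.

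Other lists of the ubiquitin system were set against the 36.8% of all genes higher and 39.4% lower in KO. Of 25 deubiquitinases outside the member rule, 17 were higher in KO and 6 lower (68% and 24%), with a median log2 change of 0.44, beside the -0.04 of all genes. The 4 with the lowest adjusted p were TNFAIP3, the NF-kappaB inhibitor A20, at 138 CPM in KO and 3.32 CPM in WT (log2 change 5.39), OTUD7A at 1.39 CPM in KO and 17.4 CPM in WT (-3.65), OTUD4 at 117 CPM in KO and 47.6 CPM in WT (1.30) and VCPIP1 at 71.1 CPM in KO and 32.2 CPM in WT (1.14). Of 26 partner subunits of member enzymes, 10 were higher and 9 lower (38.5% and 34.6%), close to the shares of all genes. G3BP1, the stress granule partner of USP10, had 337 CPM in KO and 185 CPM in WT (0.87), while USP10 itself was not called (-0.02). ASXL2, a partner of BAP1, had 111 CPM in KO and 46.9 CPM in WT (1.25), and ADRM1, the proteasomal receptor of UCHL5, had 88.4 CPM in KO and 47.0 CPM in WT (0.91). COPS2, a subunit of the COP9 signalosome, had 121 CPM in KO and 69.6 CPM in WT (0.80). These 4 partners all rose, while 9 of the 26 were lower, and the lowest log2 change in the list was -0.57.

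Of 25 ubiquitin, E1 and E2 genes, 15 were higher in KO and 9 lower (60% and 36%), with a median log2 change of 0.18. UBE2H had 532 CPM in KO and 154 CPM in WT (1.79). UBE2C and UBE2S, the E2 enzymes of the anaphase-promoting complex, were lower, at 6.81 CPM in KO and 51.6 CPM in WT (-2.93) and at 46.0 CPM in KO and 115 CPM in WT (-1.32). The proliferation genes fell in the same libraries, as given above, and their part was not tested.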

How the data were processed

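The authors deposited whole-number counts per gene for 60898 rows, without normalization. RSEM 1.2.4, fastp 0.20.0 and DESeq2, with builds GRCh38 and hg38, are listed in the submitters' processing notes; annotation release, strand setting and any rounding of RSEM estimates are not given in the sources used here. Of the member rows, 38 carry an assembled locus name beside the Ensembl identifier. Per the labels, RNA was extracted with Trizol and libraries were made with an Illumina TruSeq kit.

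A quasi-likelihood model was fitted to the deposited counts with edgeR 4.0.16 (R 4.3.3): TMM factors, filterByExpr (21063 genes, 99.9% of counts), 1 mean per group over all 10 libraries and 5 residual degrees of freedom, tested on simulated data. Calls used a Benjamini-Hochberg adjusted p under 0.05 over all genes. CPM values are counts per 1000000 of the TMM-scaled library size. A count of 0 allows up to 0.144 to 0.182 CPM (3 counts), counting error only. Chi-square per gene between replicates was 1.95 to 3.59, so no libraries were duplicates. DESeq2 1.42.0 and 19 other settings served as alternatives.

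Values per library are given for the 8 largest rises and 8 largest falls in KO called in both lines, up to 6 members per rescue against WT, the UCH, OTU and JAMM members listed by symbol and opposite paralog pairs. For up to 4 genes per pathway list the means of KO and WT are given. ENY2, ATXN7L3, WDR48 and the other members named within a role were added to account for the class. Members, lists and rules were chosen with earlier results of these data known. Exon positions and lengths came from GENCODE release 29, in which all 56 members were found.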

Additional observations from a re-analysis of the deposited data

How the results depend on the processing

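Over 20 alternatives, 30 of the 37 members called in KO against WT were called each time, 15 higher and 15 lower; PSMD14, UCHL5, USP16, USP28, USP37, USP42 and USP44 were not. Of 2929 single-gene values under an alternative for the 30 named members, 2824 kept their call, 102 lost it and 3 turned round, all 3 with library size alone: USP16 in KO (-0.038) and KO2 (-0.034) against WT, and OTUB1 in KO+CFLAR against KO (0.11). Many of these 30 were named for large changes. Outside them, USP47 against KO turned with that scaling from -0.12 to 0.09 in KO+STAMBP and from -0.10 to 0.10 in KO+CFLAR, called in the other direction. USP12, USP24, USP28, USP32, USP34 and USP48 changed sign in some comparisons without a call. Of 513 counts, 493 stayed within 1.5 times. Library size alone gave 30 members lower in KO1 and 28 lower in KO2 against WT, 29 higher and 14 lower in KO+STAMBP against KO, and 31 higher and 14 lower in KO+CFLAR against KO. The split of all called genes moved in the same direction in each of these comparisons, as given above. DESeq2 gave 7 members lower in KO+CFLAR against WT. With no filter on low counts, 2 members and 251 genes in all were called between KO1 and KO2, and 780 genes between KO+CFLAR and KO+STAMBP. The cause was not tested. Leaving out 1 library at a time gave 0 to 1 members higher and 20 to 58 genes called between KO1 and KO2, 7 to 14 members lower in KO+STAMBP and 7 to 12 lower in KO+CFLAR against WT, and 27 to 313 genes called between KO+CFLAR and KO+STAMBP. A group left with 1 library is assumed to vary like the others.

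Replicate numbers showed no sign of pairing the libraries. With the level of each group set aside, same-numbered libraries of different groups correlated at -0.02 to 0.07 over 10 pairs of groups, none over 0.1. The levels themselves were close between libraries of a group. With the replicate block, 17 members were higher and 21 lower in KO against WT, 6 higher and 12 lower in KO+STAMBP against WT, and 6 higher and 11 lower in KO+CFLAR against WT; USP3 in KO+STAMBP against WT was the named member that lost its call. The largest standard errors in KO against WT were those of USP50, USP6 and USP49 (0.29, 0.23 and 0.18 on the log2 scale).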
